A study of Glycine max with 4 samples.

Results

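The sites described here are the places on soybean chromosome 13 where the protein of the gene GLYMA.13G153200 was found on DNA in both replicates of a chromatin immunoprecipitation and sequencing (ChIP-seq) experiment. A site is a pair of peaks on chromosome 13, one from each replicate, that overlapped by at least 1 bp and were paired one to one by the largest overlap. There were 1459 such sites among 20335 in the whole series, formed from 2062 chromosome 13 peaks of replicate 1 and 2040 of replicate 2. The members were chosen by chromosome alone, but with earlier results of these data known.

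The study used embryos of the soybean cultivar Williams 82 at early maturation, dissected from seeds of 6 to 7 mm, with no other genotype, stage or treatment. Its 4 samples are 2 ChIP replicates and 2 input samples of chromatin that was not precipitated. Tissue of both groups was fixed with 1% formaldehyde for 10 minutes. The ChIP samples were precipitated with 3 micrograms of an antibody raised to a peptide, residues 275 to 289 of the protein. The values here come from the peak list of each ChIP replicate. The series has neither a control antibody nor embryos lacking the protein, so what else the antibody precipitated was not tested. The labels do not say how many plants went into a replicate, and with one group there was no comparison of conditions.

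The peak names call the target ABI5. In Arabidopsis ABI5 is a transcription factor of the bZIP class that takes part in the seed's response to the hormone abscisic acid and binds DNA elements with an ACGT core. Soybean chromosomes typically carry gene-rich arms toward both ends and a repeat-rich, gene-poor middle around the centromere. Where genes, the centromere and repeats lie on chromosome 13 was not read from these data, since no genome or annotation of the files' build was used. For the same reason no gene is assigned to a site and no site sequence is shown. The identifier of the target gene places it on chromosome 13 too, but its position among the sites was not analysed here.

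Chromosome 13 was almost empty of sites near its start and densely occupied over most of the rest of its length. The number of shared sites in each 1 Mb bin, counted from the start of the chromosome, was 5, 9 and 8 in the first 3 bins. Bins 4 to 10 then held 7 sites in all, with none in bins 4, 6, 7 and 9. Bins 11 to 14 held 13, 11, 8 and 15 sites. From bin 15 to the end, at bin 46, the 32 bins held 1383 sites, which was 94.8% of the sites on 69.4% of the chromosome's extent. The extent is the end of the last peak, 45.8 Mb, so the last bin covers 0.820 Mb.

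**Figure D1:**
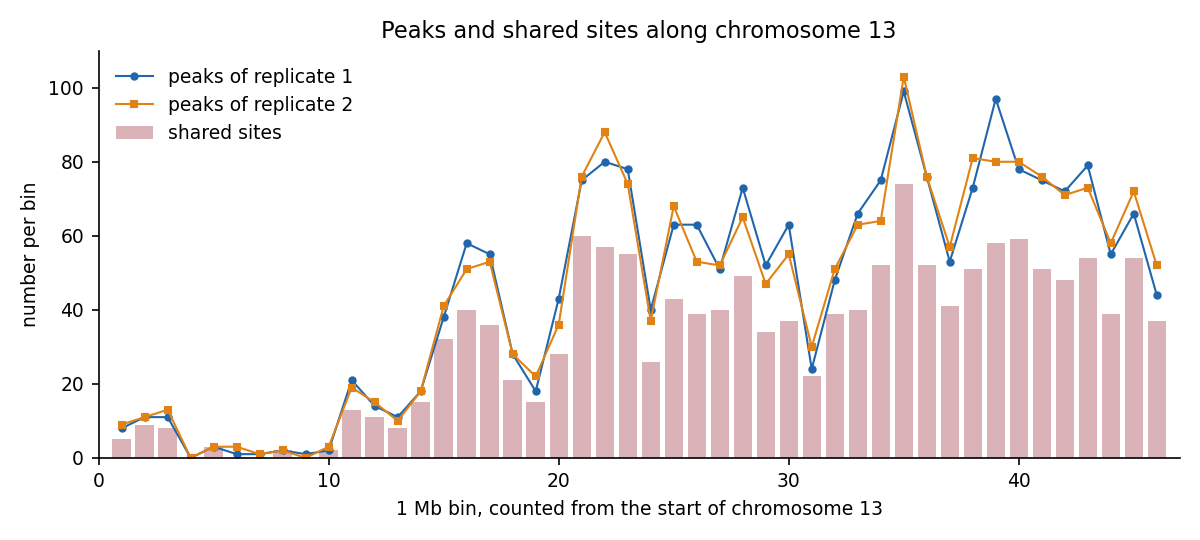
Number of peaks of replicate 1 (blue circles), peaks of replicate 2 (orange squares) and shared sites (bars) in each 1 Mb bin of chromosome 13, with bins numbered from the start of the chromosome. Both replicates were near 0 in bins 4 to 10 and the bins from 20 onward held 22 to 74 shared sites.

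Both replicates gave this profile on their own. In bins 4 to 10 replicate 1 had 10 peaks and replicate 2 had 12, and in bins 15 to 46 they had 1958 and 1933. Per Mb these are 1.43 and 1.71 against 61.5 and 60.7. Across the 46 bins, Spearman's rho between the peak counts of the replicates was 0.98, a description over neighbouring bins that share a genome sequence and 2 libraries.

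The 5 densest bins were bin 35 with 74 shared sites, bin 21 with 60, bin 40 with 59, bin 39 with 58 and bin 22 with 57. In bin 35 the replicates had 99 and 103 peaks, the highest count of either list on the chromosome. Of the 910 bins on the other 19 chromosomes, 99.5% held fewer sites than bin 35. The dense part still had dips. Bin 24 held 26 sites and bin 31 held 22, and bins 18 and 19 held 21 and 15 between bins of 36 and 28. The peak counts of both replicates dipped in the same bins.

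The other chromosomes had a different layout, with a sparse middle and in most cases dense ends. Some had an end that was little denser than the inner part. The first 20% of chromosome 20 had 11.6 shared sites per Mb against 11.0 in its inner part. For the last 20% of chromosome 15 the values were 13.8 and 8.64. In the first 20% of its extent chromosome 13 had 2.95 shared sites per Mb, below each of the other 19, which ran from 11.6 on chromosome 20 to 63.4 on chromosome 6. In the last 20% it had 50.5 per Mb, rank 3 of 20, with the others between 13.8 and 51.5. The density of the outer 20% at each end was 0.76 of that of the inner part on chromosome 13, against 2.27 to 9.54 on the others. From the peaks of replicate 1 alone the ratio was 0.76, and from those of replicate 2 alone 0.79. An imbalance between the sides was seen on other chromosomes too. The later 50% of its extent held 71.4% of its sites, and on the others the fuller side held 52.1% to 81.5%.

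**Figure D2:**
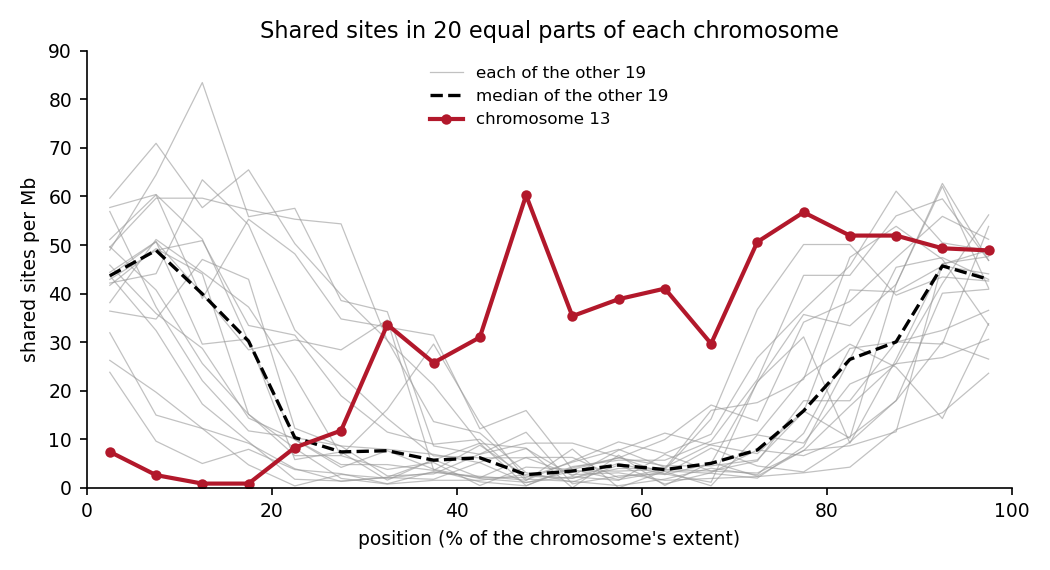
Shared sites per Mb in 20 equal parts of each chromosome's extent, for chromosome 13 (red), each of the other 19 chromosomes (grey lines) and their median (dashed). Chromosome 13 was the lowest of 20 in each of the first 4 parts and the highest in each part from 40% to 85% of the extent.

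The middle of the chromosome was dense where the other 19 were sparse. Between 45% and 50% of the extent chromosome 13 had 60.2 shared sites per Mb, where the other 19 had a median of 2.72 and at most 15.9. Between 55% and 60% it had 38.8, against a median of 4.68 and at most 9.46. In the first 5% it had 7.42, against a median of 43.7 and at least 23.8. In the last 5% it had 48.9, rank 5 of 20, with the others between 23.6 and 56.2. The right end of chromosome 13 lay within the range of other chromosome ends, and its left end and its middle lay outside the ranges of the other 19 at those places.

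A stretch almost free of sites was present on other chromosomes as well, but in another place. The 7 neighbouring bins with the fewest sites held 7 sites on chromosome 13 and 7 to 32 on the others. At this length, which is that of the sparse run itself, the stretch was as empty as the emptiest elsewhere. Its centre lay 14.2% of the extent from the start. On the other 19 the centre lay between 27.3% and 49.3% of the extent from the nearer end. With windows of 5 and 10 bins, chosen after the data had been seen, chromosome 13 stood at 16.4% and 10.9%, and the closest of the others at 25.5% and 28.4%. The 5 bins held 4 sites, against 4 to 17 on the others. The 10 bins held 29, against 12 to 60 with a median of 22, so at that length chromosome 13 was not among the emptiest. The longest run of bins with at most 3 sites was 7 bins on chromosome 13 and 2 to 12 on the others. Chromosome 13 had 7 bins with at most 3 sites, 15.2% of its bins, against 22.3% on the others. Its share of nearly empty bins was thus not high.

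What was long on chromosome 13 was the dense part. Bins 20 to 46 each held at least 20 shared sites, an unbroken run of 27 bins. The longest such run on the other chromosomes was 18 bins, on chromosomes 6 and 8, and the median was 11. Bins of at least 20 sites made up 67.4% of chromosome 13 and 29.8% to 58.3% of the others. The whole chromosome had 31.8 shared sites per Mb, the highest of 20, closely followed by chromosome 11 at 30.6. Replicate 1 had 45.0 peaks per Mb on chromosome 13 and replicate 2 had 44.5, with chromosome 11 at 41.6 and 41.4. The rank of chromosome 13 was the same in both lists. No test was made of these differences, since peaks of one chromosome are not replicates and chromosome 13 was chosen with its density known.

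**Figure D3:**
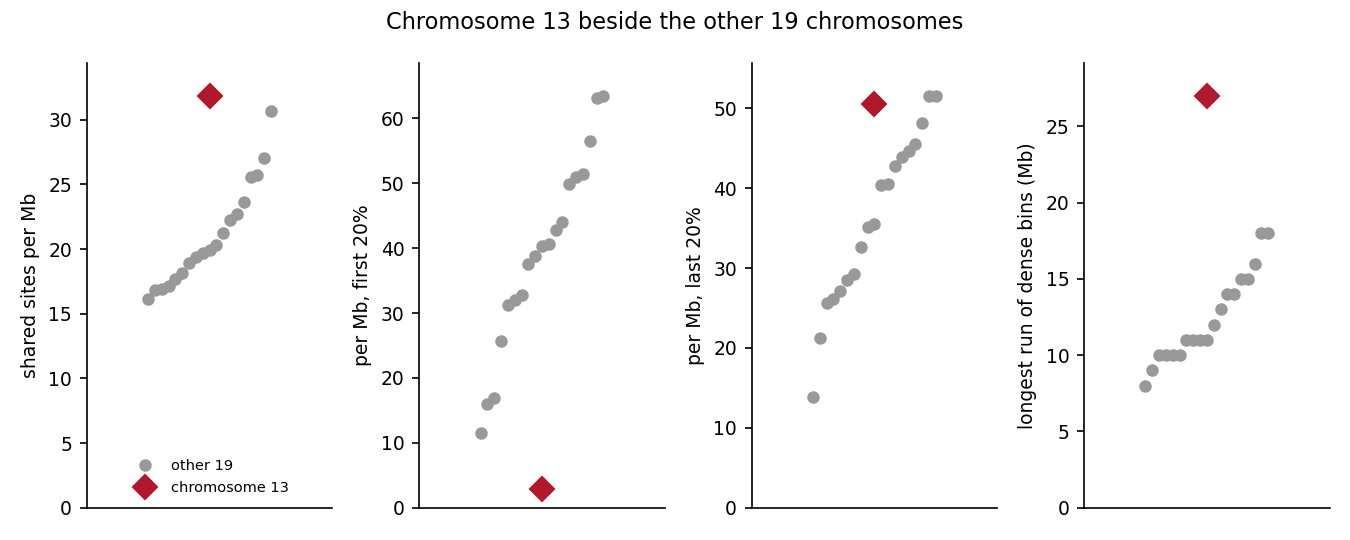
Chromosome 13 (red diamond) beside the other 19 chromosomes (grey points, sorted within each panel): shared sites per Mb over the whole extent, in the first 20% and in the last 20%, and the longest run of 1 Mb bins with at least 20 shared sites. Chromosome 13 was highest in the first panel at 31.8, lowest in the second at 2.95, rank 3 of 20 in the third at 50.5, and highest in the last at 27.

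The few sites near the start were not weak as a group. For the 22 sites in the first 3 bins, the median fold was 5.24 in replicate 1 and 6.48 in replicate 2. The fold is the authors' value for each peak, the ChIP signal at the summit divided by the caller's background. That background, inferred from the deposited values, was raised at some sites but had a lower limit. In replicate 2 many sites shared its lowest value, 5.49 fragments, so a fold is not always relative to the immediate surroundings. The 1383 sites from bin 15 onward had 5.10 and 5.39. Of the 22, 7 were strong, with a mean of at least 30 in −log10 q, the caller's p-value after adjustment for multiple tests, against 319 (23.1%) of the dense part and a background of 22.6% over the 20 chromosomes. One of them, at 1632256 to 1634001, was among the 10 strongest sites of the chromosome. Its fold was 44.3 in replicate 1 and 29.1 in replicate 2 (36.7 ± 10.7, SD, n = 2) from 318 and 188 fragments, counts that were inferred from the deposited fold and p. Its nearest shared neighbour was 93.1 kb away.

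Of the 7 sites in bins 4 to 10, none was strong, and they lay in 5 places. Single sites lay at 4533726 to 4534204, with folds of 7.17 and 3.48, at 4627378 to 4627720, with 3.59 and 4.01, and at 4798069 to 4798550, with 8.01 and 5.39. A close pair lay at 9773357 to 9773831 and 9775384 to 9775745, with folds of 5.77 and 6.63 at the first and 4.49 and 3.88 at the second. The remaining pair, at 7358076 to 7358515 and 7358792 to 7359604, had the lowest folds of the stretch, 2.03 and 1.61 at the first and 2.05 and 1.74 at the second. Its inferred background was 104 and 126 fragments at the first and 186 and 207 at the second, against chromosome 13 medians of 7.03 and 5.90 over all peaks. Whether the high background set these 2 peaks was not tested. The largest gaps between neighbouring shared sites of the chromosome, 2.56, 2.41 and 1.89 Mb, were all around these sites. Within the 2.56 Mb gap, from 4798550 to 7358076, replicate 1 had 2 peaks and replicate 2 had 4, without partners.

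The typical site had nearly the same strength as elsewhere. Very strong sites made up a somewhat larger share than on the other chromosomes together, but some single chromosomes had a higher share at a mean fold of at least 20. The median fold of the 1459 sites was 5.11 in replicate 1 and 5.41 in replicate 2, within the ranges over the other 19 chromosomes of 4.96 to 5.30 and 5.17 to 5.56. From the 5th to the 95th percentile the fold spanned 3.19 to 13.8 in replicate 1, and 3.14 to 13.9 in replicate 2. Strong sites numbered 336, which is 23.0% of the sites, beside the 22.6% over the 20 chromosomes. The share was between 21.2% and 25.1% on the others, so the larger number of strong sites went with the larger number of sites. Per Mb, chromosome 13 had 7.33 strong sites, the highest of 20, followed by 7.17 on chromosome 11. A fold of at least 20 in both replicates was reached by 16 sites (1.10%), against 0.880% on the other chromosomes together, and a fold of at least 40 by 6 sites (0.411%), against 33 (0.176%). These counts are small, some of the sites lie close together, and the difference was not tested.

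Along the chromosome the typical strength stayed in a narrow range. Over the 35 bins with at least 10 sites, the lowest and highest bin medians of the fold were 4.03 and 5.88 in replicate 1, and 4.60 and 6.59 in replicate 2. The number of sites in those bins ran from 11 to 74, and the share that were strong from 4.76% to 38.5%. These extremes rest on few sites, 1 of 21 in bin 18 and 5 of 13 in bin 11, so this spread was not read further. Bin 8, whose 2 sites are those with the high background above, had medians of 2.04 and 1.68. Weak and strong sites had similar shares near the start, since 4.45% of the weakest 20% by mean −log10 q and 4.79% of the strongest 20% lay before 14 Mb. The median inferred count of fragments over a site's summit was 42 in replicate 1 and 39 in replicate 2. The lowest counts were 21 and 18, and at that depth a fold carries a large counting error.

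The 10 strongest sites by mean −log10 q had mean folds of 32.8 to 60.1. At the first, 26321522 to 26322491, the fold was 67.4 in replicate 1 and 52.8 in replicate 2 (60.1 ± 10.3, SD, n = 2), from 491 and 356 fragments. The second, at 14062892 to 14063805, had 66.4 and 43.7 (55.1 ± 16.0), from 494 and 371 fragments. The third, at 39895229 to 39896077, had 57.6 and 51.7 (54.7 ± 4.18). The fourth, at 36096352 to 36097617, had 48.3 and 47.2 (47.7 ± 0.805). With SDs of up to 17.9 over 2 replicates, the order of these sites is not resolved.

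The fifth site, at 16380372 to 16381244, had folds of 42.8 and 35.1. The sixth and seventh lay close together, at 38378653 to 38380093 with 47.5 and 44.5 and at 38360461 to 38361150 with 42.6 and 45.8. The eighth, at 39905529 to 39906464 with 43.0 and 34.1, lay near the third. The ninth, at 34325755 to 34326629, had 45.5 and 20.1, the widest split of the 10, and the tenth was the site at 1632256 near the start. Replicate 1 had the higher fold at 9 of the 10 sites and at 41 of the 50 strongest. These sites were ranked by mean −log10 q, which at the first site was 715 in replicate 1 and 483 in replicate 2. Such a mean favours sites high in replicate 1, so these counts follow in part from the ranking. Over all 1459 sites replicate 1 was higher at 676 and replicate 2 at 783. The caller's scaling of the libraries is not given, so the level of one replicate against the other was not read further.

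**Figure D4:**
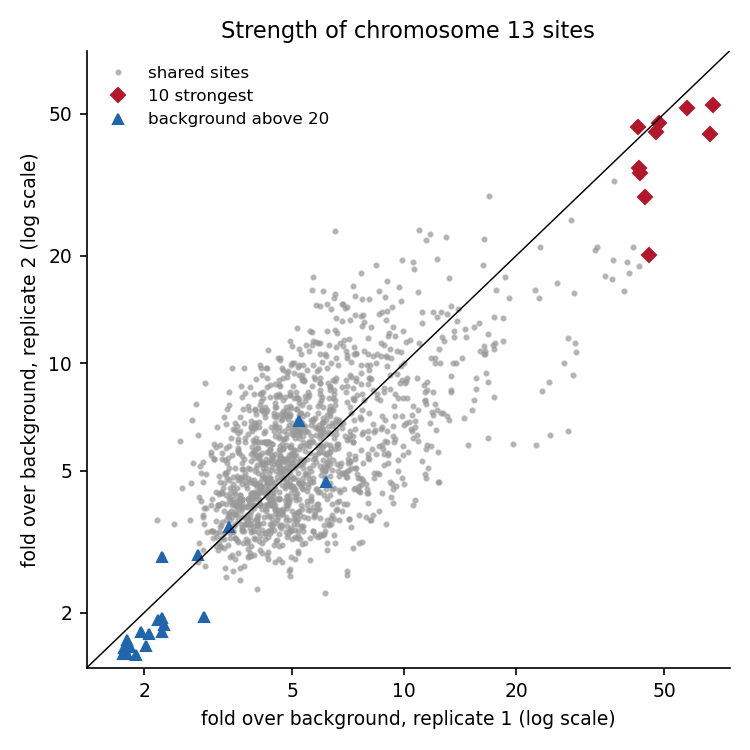
Fold over the caller's background of each of the 1459 chromosome 13 sites in replicate 1 (x axis) and replicate 2 (y axis), both on log scales, with the line of equal fold. The 10 strongest sites (red diamonds) had folds of at least 42.6 in replicate 1 and 20.1 in replicate 2, and most of the 19 sites with an inferred background above 20 (blue triangles) lay at the low end.

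A row of strong sites stood close together near 39.9 Mb. The densest window of 20 kb on the chromosome, from 39892638 to 39911899, held 7 shared sites, and 6 of them had a mean fold of at least 20. In order along the chromosome, the first site had folds of 7.97 and 4.34 in replicates 1 and 2. The next, at 39895229, was the third strongest of the chromosome. The site at 39902053 to 39902807 had 28.0 and 25.1 (26.6 ± 2.02, SD, n = 2), and that at 39903307 to 39904157 had 36.5 and 32.4 (34.4 ± 2.95). After the site at 39905529 came one at 39908373 to 39909129 with 25.7 and 16.8 (21.3 ± 6.32) and one at 39911065 to 39911899 with 40.1 and 17.9 (29.0 ± 15.7).

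In all, 27 sites of chromosome 13 (1.85%) had a mean fold of at least 20, the highest number of 20 chromosomes. Each of the others had 8 to 25, which was 1.54% of their sites together. Chromosome 13 did not have the highest share. Higher shares were found on chromosome 17, with 23 among 1125 sites, chromosome 6, with 25 among 1312, and chromosome 1, with 18 among 960. The window held 6 of the 27 on chromosome 13. No other chromosome had as many in 20 kb. Chromosome 12 had 5, from 36157556 to 36171848, chromosome 6 had 4, and the others had 1 or 2. The window was found by searching all of them and is a description. Neighbouring peaks are separate intervals of the caller. Each of these 7 intervals was called in both replicates, as every shared site is by definition.

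Other groups of neighbours were small. Of the 1459 sites, 280 (19.2%) lay within 2 kb of another shared site, beside a background of 19.5% over the 20 chromosomes. Linking sites through steps of at most 2 kb gave 115 groups of 2 sites, 14 of 3 and 2 of 4. One group of 4, from 27935813 to 27941266, joined a site with folds of 42.8 and 18.6 to 3 sites with mean folds of 4.09 to 6.20. The other, from 38121983 to 38125735, held a site with folds of 13.9 and 13.1 beside 3 sites with mean folds of 5.87 to 8.52.

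Typical spacing on chromosome 13 was close to that of other chromosomes, while long spacings were rarer. The median spacing was 15.9 kb, against 16.3 kb on the other 19 chromosomes together, and the 10th percentile was 1.92 kb against 1.93 kb. The median depends on which peaks count. With all peaks of replicate 1 it was 9774 bp, with all peaks of replicate 2 it was 10331 bp, and with pairs of peaks of −log10 q of at least 10 it was 26576 bp. The 90th percentile was 61.6 kb against 90.9 kb, and the 95th was 87.5 kb against 174 kb. Only 14 sites (0.960%) were more than 100 kb from their nearest neighbour, the lowest share of 20, with 1.46% to 5.52% on the others. At a given crowding, chromosome 13 sites did not have a steady excess of close neighbours. In bins of 45 to 59 sites, 17.7% of 640 sites on chromosome 13 and 22.8% of 5304 elsewhere had a neighbour within 2 kb. In bins of 10 to 29 sites the shares were 20.5% of 151 and 14.9% of 3803. Bins of 30 to 44 sites had 18.1% and 19.7%, and bins of 60 to 89 sites had 27.6% and 23.5%. Single other chromosomes ran from 17.3% to 37.3% in bins of 45 to 59 sites, over 18 of them. In bins of 10 to 29 sites all 19 ran from 7.83% to 21.2%. Both ranges hold the chromosome 13 value.

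Peak width followed the strength of a site and was much the same as elsewhere. The median width was 459 bp in replicate 1 and 388 bp in replicate 2, against 444 to 467 bp and 377 to 389 bp on the other chromosomes. The lists differ in their narrowest peak, 266 and 224 bp, so widths were set against the other chromosomes only within a list. From the weakest to the strongest 20% of the sites, the median width went from 355 to 600.5 bp in replicate 1, and in replicate 2 from 288.5 to 512 bp. Across sites, Spearman's rho of width with −log10 q was 0.67 in replicate 1 and 0.61 in replicate 2, and 0.67 and 0.61 on the other chromosomes. Both values come from the same signal, so this is a description.

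By width averaged over both lists, the widest site was the strong site near the start, at 1632256, with 1670 and 1685 bp. The second, at 44857534 to 44859224, was 1691 and 1106 bp wide with folds of 34.7 and 17.5. The third, at 35319807 to 35321147, was 1336 and 1308 bp wide with folds of 13.7 and 10.0. Within replicate 1 alone the widest peak of a site was 1999 bp, and within replicate 2 alone 1685 bp.

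Paired peaks had summits close together, and the replicates ranked the strength of the sites moderately alike. Of the chromosome 13 peaks, 70.8% of replicate 1 (95% exact binomial interval 68.7 to 72.7) and 71.5% of replicate 2 (69.5 to 73.5) had a partner, beside backgrounds of 71.3% and 71.9% over the whole lists. The intervals cover counting error only and treat peaks as independent. Summits of a pair were a median of 36 bp apart, and 90% of pairs were within 121 bp. Pairs were formed by overlap, which in itself limits how far apart their summits can lie. Spearman's rho of the fold was 0.55, within the 0.46 to 0.59 of the other chromosomes. Folds of the replicates were within 1.5 times of each other at 1000 sites (68.5%), and differed by more than 2 times at 121 (8.29%). On the other chromosomes together the shares were 68.8% and 8.78%.

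Peaks without a partner were weaker. The 603 such peaks of replicate 1 had a median fold of 3.79, against 5.11 for those with a partner, and the 581 of replicate 2 had 4.11 against 5.41. In the weakest 20% of the chromosome 13 peaks 38.8% of replicate 1 and 54.4% of replicate 2 were shared, and in the strongest 20% 96.1% and 97.3%. Pairs at the limit of the rule were few. The smallest overlap of a pair was 81 bp, at 32801186 to 32801672 with folds of 2.87 and 4.64, against a median overlap of 355 bp. The nearest peaks of the 2 lists that both lacked a partner and did not overlap were 52 bp apart, within 35967252 to 35968170, with folds of 3.67 and 3.65.

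Some strong sites differed widely between replicates. At 564781 to 565407 the fold was 27.6 in replicate 1 and 6.47 in replicate 2, and at 22766163 to 22766806 it was 24.6 and 6.28. The opposite was seen at 21313025 to 21313545, with 6.50 and 23.5, at 45015920 to 45016490, with 5.70 and 17.4, and at 14975928 to 14976428, with 5.65 and 16.0. Another site with a large difference, at 32176145 to 32177930 with 22.7 and 5.89, depended on the pairing. Its replicate 1 peak spanned 2 peaks of replicate 2 and was paired with the one of larger overlap, whose summit was 932 bp away. The other, at 32177138 to 32177672, had its summit 15 bp away and a fold of 12.3, which gives a ratio of 1.84 in place of 3.85. That peak was also the strongest of replicate 2 without a partner. Such cases were rare, since 4 and 23 of the peaks without a partner overlapped a peak of the other list.

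The strongest replicate 1 peak with no partner lay at 24599690 to 24600283, with a fold of 10.4 and the nearest replicate 2 summit 2084 bp away. The next, at 34147404 to 34147856 and 564021 to 564452, had folds of 9.21 and 9.28. In replicate 2 the next after the spanned peak were at 29829715 to 29830116, with a fold of 11.2 and a replicate 1 summit 95 bp away, and at 33707145 to 33707489, with 8.63. No partner was found for 7 of the 345 replicate 1 peaks with −log10 q of at least 30, nor for 5 of the 343 such peaks of replicate 2. These are 2.03% and 1.46%, beside 2.46% and 1.70% on the other chromosomes. The 5 include the spanned peak and that at 29829715. Replicate 1 had a summit near both, so a missing partner was not always a missing peak.

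A small number of sites stood on a high local background. The inferred background was above 20 fragments in both replicates at 19 sites (1.30%), beside 1.13% over the 20 chromosomes. Their mean folds ran from 1.64 to 6.05. The highest background was at 16858690 to 16859489, with 227 and 238 fragments and folds of 2.26 and 1.84.

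Of these 19 sites, 5 lay together in one stretch, picked as a run of at least 5 neighbouring peaks with a background above 15. From 38798646 to 38856048 in replicate 1, over 57.4 kb, that list had 11 peaks with backgrounds of 22.1 to 29.9 fragments, and replicate 2 had 6 with 19.8 to 24.7. Within 150 kb of its centre, the 14 other peaks of replicate 1 had 6.11 to 7.49 and the 10 of replicate 2 had 5.49 to 8.58. The stretch was picked by its background, so a gap between the values inside and outside follows in part from that choice. The fragments over the summits were also many, 62 to 183 in replicate 1 and 48 to 176 in replicate 2, while the folds were 2.23 to 6.17 and 1.95 to 6.89. All 6 replicate 2 peaks had a partner, and 5 of the 11 replicate 1 peaks had none. Runs of at least 5 neighbouring peaks with a background above 15 occurred in both lists on chromosomes 1, 12, 18 and 19 as well. The control used for each list is not stated. Whether this background lowered the folds or raised the number of peaks called in the stretch was not tested.

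**Figure D5:**
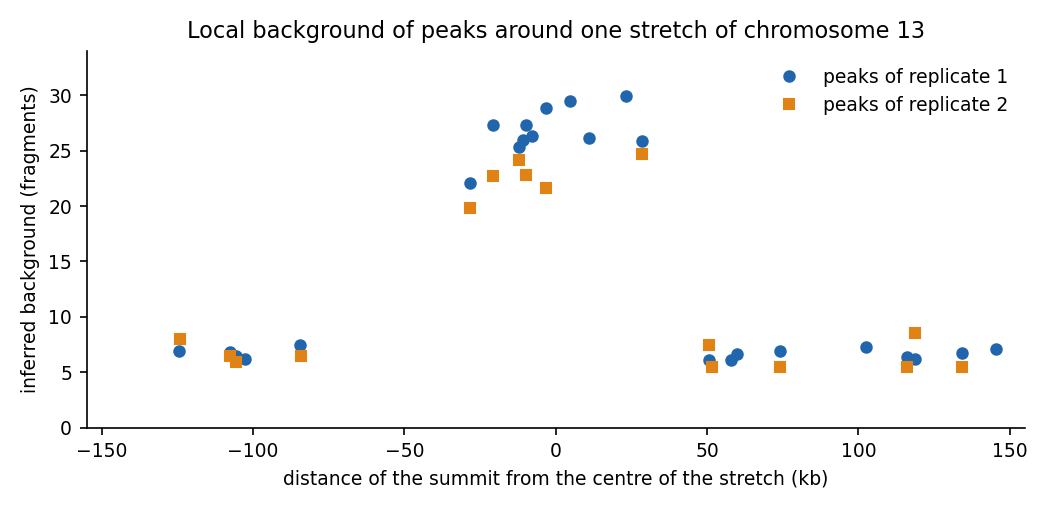
Inferred local background, in fragments, of each peak of replicate 1 (blue circles) and replicate 2 (orange squares), against the distance in kb of its summit from the centre of the stretch with raised background. Inside the stretch, which was picked as a run of peaks with a background above 15, the values were 22.1 to 29.9 and 19.8 to 24.7. Outside it, within 150 kb, they were at most 7.49 and 8.58.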

How the data were processed

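The submitters' processing notes name Bowtie 0.12.7 and MACS3. Options, control and genome build were not given in these sources. The authors deposited one narrowPeak list per ChIP replicate, with a q threshold of 0.01 in the peak names, so peaks were called per sample. The authors deposited for each peak a fold enrichment, which is a ratio over the caller's background, a −log10 p and a −log10 q. The deposited score and the positions (1-based here, build not named) come from the same lists. Peak names of the second list read BR3, and the list was assigned by its label. The depth is unknown, as library totals were not used.

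Fragments over a summit (k) and background (λ) were inferred by solving fold = (k + 1) / (λ + 1) and the Poisson p for a whole k. All peaks were solved within a relative error of 2e-05, a tolerance set after the errors were seen. The values are inferred, not the authors' own.

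The members, lists, stretches and comparisons were chosen with earlier results of these data known. Sites named are the 10 strongest by mean −log10 q, the 3 widest, the 3 largest differences in each direction at mean −log10 q of at least 30, the 3 strongest peaks without a partner in each list, the 5 densest and the empty bins, the densest 20 kb and the largest gaps. Sites in bins 4 to 10, groups of 4 and the raised background stretch were chosen after their values were seen. Intervals are exact (Clopper-Pearson). Pairing, density and counts were tested on simulated data. The simulated counts used the same formula with low backgrounds, and the simulated sites lay well apart. High backgrounds, the caller's own formula and peaks that span several others were therefore not tested. Python 3.11.15, numpy 2.4.6, pandas 2.3.3 and scipy 1.17.1 were used.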

Additional observations from a re-analysis of the deposited data

How the results depend on the processing

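Under 6 alternatives (stricter overlap, summit distance, 2 thresholds, either replicate alone) chromosome 13 kept the highest density of 20, the lowest ratio of outer to inner density and the sparsest 7 Mb nearest an end. Of 61 values under alternatives, 39 stayed within 1.5 times for counts, or else within the spread between replicates, the binomial interval or, for rho, the SD over the other chromosomes. The other 22 moved beyond those limits. A change of direction was defined only for the ratio of outer to inner density, which stayed below 1 throughout. With reciprocal overlap of 50%, 65.8% of replicate 1 peaks were shared and the median spacing was 17574 bp. With summits within 100 bp these were 60.6% and 18451 bp, and the median fold was 5.60. With −log10 q of at least 5 the spacing was 17214 bp and the fold 5.65. With at least 10, which by construction leaves fewer peaks, there were 871 sites, 66.9% shared, 19.01 per Mb, a median of 22 per bin, a spacing of 26576 bp, a fold of 6.65, a rho of 0.44 and an outer to inner ratio of 0.78. Leaving out one replicate gave ratios of 0.76 to 0.79, spacings of 9774 to 10331 bp, widths of 350 to 423.5 bp (lists with different narrowest peaks), folds of 4.61 to 4.83, densities of 44.5 to 45.0 per Mb and a median of 51.5 peaks per bin. Spacings then fall because all peaks count. Outer regions of 10% gave a ratio of 0.82, against at least 1.95 elsewhere. The cause of the other shifts was not tested. Leaving out sites with background above 20, chosen after the data had been seen, moved nothing beyond the limits. No paired analysis was possible because both peak lists belong to the ChIP group, with none from the input samples. Alternatives that need a genome of the files' build (lengths, motifs, gene starts) were not run. Weak sites, near 18 to 21 fragments, are limited by counting error, and an SD over 2 replicates rests on 1 difference.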
